A study of Mus musculus with 11 samples.

Results

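S100 proteins are small calcium-binding proteins of the EF-hand class, and 10 of their genes were followed here across wounded and unwounded mouse keratinocytes: *S100a3*, *S100a4*, *S100a6*, *S100a8*, *S100a9*, *S100a10*, *S100a11*, *S100a13*, *S100a14* and *S100a16*. The 10 were set as a list of names, out of 24421 genes listed in every count table. The list does not take in the whole family, and 8 other S100 genes of the tables, *S100a1* among them, are given apart. RNA-seq gave the level of each gene, and ATAC-seq, which reads DNA that a transposase can reach, gave peaks of open chromatin in or within 5 kb of each gene. The study asked how wounding alters keratinocytes of the wound front and what the transcription factor GRHL3 contributes. WT mice were *Krt14*-Cre littermates with intact *Grhl3*. *Grhl3*-cKO mice carried *Krt14*-Cre together with floxed *Grhl3* alleles, and the paper describes the gene as deleted in keratinocytes. The study describes males and females aged 8 weeks on a C57BL/6J background. Punch wounds of 4 mm were made in back skin, and wounded samples came from the 1 mm wound margin at day 3. Unwounded samples came from distal skin. Cells were sorted as CD49F positive and negative for CD45, CD31 and TER119.

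The RNA-seq libraries numbered 2 for WT unwounded, 2 for WT wounded, 1 for unwounded keratinocytes labelled *Grhl3*-cKO and 2 for wounded keratinocytes labelled *Grhl3*-cKO. Reads on genes came to 15488699 and 16807451 for WT unwounded, 16653948 and 15418631 for WT wounded, 13497283 for unwounded *Grhl3*-cKO, and 15223569 and 14279568 for wounded *Grhl3*-cKO. Levels are given as CPM, the reads of a gene scaled by the reads on all genes of its library. A gene with 0 counts in a library could still lie at up to 0.178 to 0.222 CPM, the level of 3 counts, depending on the library. Such floors and the counting intervals given here cover counting error only. The labels do not say whether replicates came from separate animals, so P values measure the spread between these samples, which may be technical.

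Epidermal identity was checked with marker genes. The basal keratinocyte keratin *Krt14* reached 12190 to 19440 CPM over the 7 libraries, and all 6 basal markers were counted in every library. The targeted gene *Grhl3* stood at 122 and 83.2 CPM in WT unwounded and 109.9 and 90.0 CPM in WT wounded keratinocytes. Libraries labelled *Grhl3*-cKO held 76.2 CPM of it unwounded and 116 and 104 CPM wounded. Whole-gene counts of *Grhl3* were therefore not lower after wounding in libraries with the knockout label than in WT (0.17 on the log2 scale, SE 0.21, not called by edgeR). Reads outside the deleted stretch count as well, so this number does not check the deletion, and genotypes below are given as labelled. Per the paper, deletion was checked in *Grhl3*-cKO mice by qPCR between the loxP sites and by GRHL3 staining of the wound front. The unwounded library labelled *Grhl3*-cKO stood apart from the rest. It held *Xist* at 1101 CPM, against 0.18 to 1.92 CPM elsewhere, and 0 counts of the Y-linked genes *Ddx3y*, *Eif2s3y*, *Uty* and *Kdm5d*, all 4 of which were counted in the other 6 libraries. Of these 5 genes *Xist* alone was called, higher in WT wounded keratinocytes and lower over both genotypes. Sex chromosome expression and wounding cannot be told apart among the libraries labelled *Grhl3*-cKO.

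S100 proteins pair with each other and, on binding calcium, expose a surface that grips partner proteins such as annexins and myosin heavy chains. Some are secreted and act on receptors including RAGE and TLR4. In skin they are known from the cornified envelope, from hair, and from S100A8 and S100A9, whose complex calprotectin is abundant in neutrophils and is made by keratinocytes of wounded or inflamed epidermis.

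All 10 genes passed the filter on low counts, *S100a3* only through 1 library, *Grhl3*-cKO wounded replicate 2, where it was highest. Together they took 0.125% to 0.164% of the reads on genes in a library, and the 5 most abundant members made up 96.9% to 97.9% of that share. Because longer transcripts collect more reads, levels of different genes are compared as CPM per kb of exon. On that scale *S100a11*, whose protein binds annexin A1, was highest, with a median of 794 CPM per kb over the 7 libraries and a range of 633 to 913. *S100a10*, the annexin A2 partner that is locked in its active shape without calcium, followed at 467 (424 to 611), and *S100a6*, calcyclin, at 390.5 (289 to 438). The ranges of *S100a10* and *S100a6* overlapped, whereas the lowest *S100a11* library lay above every *S100a10* library. *S100a14*, a member found mainly in epithelia, had a median of 201 CPM per kb (169.5 to 224), and *S100a16*, a widely expressed member, 81.4 (65.0 to 88.4). Neither range touched that of a neighbouring gene. By mean CPM, *S100a10* ranked 339 and *S100a11* 346 among the 24421 genes listed.

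The remaining members were far lower. Median levels were 24.3 CPM per kb for *S100a4* (12.3 to 43.6), 21.7 for *S100a13* (13.4 to 24.6) and 14.3 for *S100a9* (0 to 35.7), and these ranges overlapped. *S100a8* had a median of 2.16 CPM per kb (0 to 12.5) and *S100a3*, the hair cuticle member, 0.363 (0.0666 to 2.59). Spread between libraries was smallest for the 5 most abundant members. The highest library exceeded the lowest by 1.32-fold for *S100a14*, 1.36-fold for *S100a16*, 1.44-fold for *S100a10* and *S100a11*, and 1.51-fold for *S100a6*, but by 1.84-fold for *S100a13*, 3.55-fold for *S100a4* and 38.8-fold for *S100a3*.

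**Figure D1:**
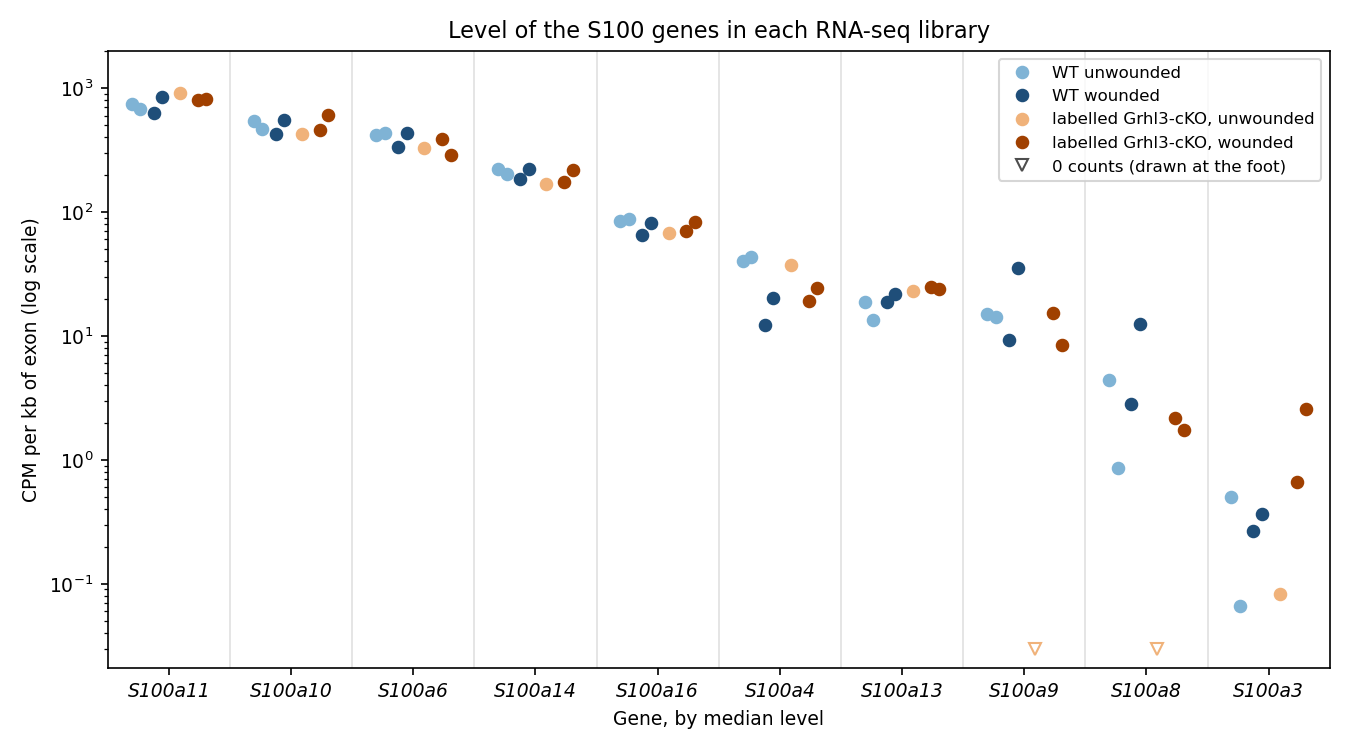
Level of each S100 gene in each of the 7 RNA-seq libraries, as CPM per kb of exon on a log axis, with genes ordered by median level; each point is 1 library, colours give the group, and open triangles mark libraries with 0 counts. *S100a11* lay between 633 and 913 CPM per kb, wounded libraries lay below unwounded libraries for *S100a4*, and *S100a8* and *S100a9* have open triangles for unwounded *Grhl3*-cKO.

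Wounding in WT skin was examined first. *S100a4*, a motility-associated member that binds nonmuscle myosin IIA and is also expressed by fibroblasts, was lower in wound-front keratinocytes. It stood at 20.0 and 21.7 CPM in WT unwounded and at 6.13 and 10.1 CPM in WT wounded libraries. Both wounded libraries lay below both unwounded ones, and the gap was wider than the spread within either group. *S100a4* fell by 1.34 on the log2 scale (SE 0.34, 95% interval -2.05 to -0.62), a level 0.396 times that in unwounded keratinocytes. In edgeR's quasi-likelihood test, where a gene was called at an unadjusted P under 0.05, *S100a4* was called. It did not pass Benjamini-Hochberg adjustment over all genes in edgeR's quasi-likelihood test (-1.34 on the log2 scale, adjusted p = 0.398, lower in 2 of 2 wounded libraries). An exact permutation test of 2 libraries against 2 cannot go below p = 0.333, two-sided. In these bulk samples, fewer cells that express a gene and less RNA per cell cannot be told apart.

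*S100a4* was the only member at an unadjusted P under 0.05 in this comparison, 1 of 10, against 4.84% of all 14045 genes tested. With 10 genes a single call is not far from that background. No member passed adjustment by edgeR's quasi-likelihood test (0 of 10, against 0.0285% of all genes); at an unadjusted P under 0.05, DESeq2 and edgeR's likelihood ratio test also called 1, against 5.23% and 7.95% of all genes. Groups did not overlap for 2 members, *S100a4* and *S100a16*, against 33.5% of all genes. The median log2 fold change was 0.03 over the members and 0.00 over all genes tested, where 446 genes were called higher and 234 lower.

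In the libraries labelled *Grhl3*-cKO, *S100a4* stood at 18.6 CPM in the unwounded library and at 9.53 and 12.1 CPM in the wounded libraries. Both wounded libraries again lay below the unwounded library, though by less than 2-fold. Over both genotypes all 4 wounded libraries lay below all 3 unwounded libraries, and *S100a4* fell by 1.12 on the log2 scale (SE 0.26, 95% interval -1.68 to -0.56). The gene was called here too but did not pass Benjamini-Hochberg adjustment over all genes by edgeR's quasi-likelihood test (-1.12 on the log2 scale, adjusted p = 0.161, lower in 4 of 4 wounded libraries). An exact permutation test of log2(CPM + 0.5) over the 7 libraries, two-sided, gave p = 0.0571, the smallest that 4 libraries against 3 allow. Without the unwounded library of the knockout label, this fit estimates wounding from the WT libraries alone, here and below. Its value for *S100a4*, a log2 fold change of -1.33, therefore repeats the WT comparison and is no further check. The fit over both genotypes shares the WT libraries with the comparison above and is not independent of it.

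Marker lists were read in the same libraries as *S100a4*. Calls in the lists, here and below, stand against 4.84% of all genes in WT and 6.61% over both genotypes. The outer root sheath and bulge list of the hair follicle summed to 6887 and 6417 CPM in WT unwounded and 5645 and 4648 CPM in WT wounded keratinocytes, and to 7637 CPM before and 4426 and 5316 CPM after wounding in libraries labelled *Grhl3*-cKO. Of its 8 genes, all counted in every library, 4 were called lower and 0 higher in WT, and 5 lower and 0 higher over both genotypes. *Krt15*, its most abundant gene, fell by 0.40 on the log2 scale in WT and by 0.65 over both genotypes, *Cd34* by 0.74 and 1.04, and *Lhx2* by 0.87 and 0.90. *Lgr5* fell by 0.75 over both genotypes, a call that ended without unwounded *Grhl3*-cKO (-0.27), and *Cd34* stood at -0.41 in WT without WT unwounded replicate 2. Of 4 hair shaft markers tested, 2 were called higher, *Krt35* and *Krt31*, and 0 lower, in WT and over both genotypes. Both were high in WT wounded replicate 1 alone (10.2 and 3.06 CPM), and their calls ended in some fits without 1 library. They passed the filter only through that library, so nothing is read from their calls. Of 6 suprabasal keratinocyte markers, 3 were called lower and 0 higher in WT and over both genotypes. The call of *Krt1* over both genotypes (-0.49) ended in 2 of 7 fits without 1 library (-0.27 at the weakest). In libraries labelled *Grhl3*-cKO, 0 of the 6 were at least 2-fold higher or lower in both wounded libraries. Their values there ran from -0.61 for *Sbsn* to 0.88 for *Krtdap* on the log2 scale. *Mitf*, most abundant in the melanocyte list (23.2 to 53.3 CPM summed over 6 genes), fell by 0.61 in WT and 0.85 over both genotypes, while *Dct* of that list rose by 2.83 and 2.86. Of 7 fibroblast markers tested, 2 were called higher in WT and 4 over both genotypes, with 0 lower. Their list summed to 37.1 and 24.0 CPM in WT unwounded, 35.1 and 77.0 CPM in WT wounded, 14.2 CPM in unwounded and 48.0 and 67.6 CPM in wounded libraries labelled *Grhl3*-cKO. Its most abundant gene *Vim* rose by 1.34 on the log2 scale in WT and by 1.91 over both genotypes, *Col1a2* rose by 1.17 and 0.88, and *Dcn* and *Col3a1* rose over both genotypes by 3.37 and 1.76. *Pdgfra* of that list was not called. It was lower in all 4 wounded libraries (0.120, 0.454, 0.328 and 0.7003 CPM) than in all 3 unwounded ones (0.710, 0.714 and 1.26 CPM). The nearest libraries stood at 0.7003 and 0.710 CPM, and groups did not overlap for 6.44% of all genes. Without unwounded *Grhl3*-cKO the calls of *Col3a1* (0.68) and *Dcn* (2.55) ended. Calls in WT ended in fits without 1 library for *Krt15* (-0.35 at the weakest), *Mitf* (-0.44), *Dct* (2.21) and *Col1a2* (0.87). All 8 fibroblast markers had counts in some library. The part of these cell types in the level of *S100a4* was not tested.

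*S100a8* and *S100a9* encode the subunits of calprotectin, which withholds zinc and manganese from microbes. *S100a8* stood at 2.13 and 0.417 CPM in WT unwounded and at 1.38 and 6.10 CPM in WT wounded libraries, which is 33, 7, 23 and 94 counts. *S100a9* stood at 7.81 and 7.44 CPM in WT unwounded and at 4.80 and 18.6 CPM in WT wounded libraries. For both genes WT wounded replicate 2 was the highest of all 7 libraries, and the groups overlapped. In WT the log2 fold change was 1.57 for *S100a8* (SE 1.13) and 0.65 for *S100a9* (SE 0.54), so that neither passed the edgeR test. Without WT wounded replicate 2 the values were 0.12 for *S100a8* and -0.66 for *S100a9*, and without WT unwounded replicate 1 *S100a8* stood at 3.18. Without WT wounded replicate 1, *S100a9* was called, at 1.32. That fit holds 1 WT wounded library, the highest of all 7 for this gene, and its measure of spread comes from the other groups.

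Without wounding, the library of the knockout label held 0 reads of *S100a8* and *S100a9*, whereas its wounded counterparts held 1.05 and 0.840 CPM of *S100a8* and 7.95 and 4.41 CPM of *S100a9*. Against the floor of 3 counts in that unwounded library (0.222 CPM), mean levels after wounding were at least 4.25-fold higher for *S100a8* and at least 27.8-fold higher for *S100a9*. *S100a3* had 1 count before wounding and 9 and 33 counts after it in the libraries labelled *Grhl3*-cKO, a ratio of 19.2 with an exact 95% counting interval of 3.27 to 776.8. These 3 members were at least 2-fold above the unwounded library in both wounded libraries, and 9.58% of all genes tested were past the same rule in either direction. *S100a3* passed the filter only through a library of this wounded group, so its place among the 3 follows from the filter and nothing is read from the count. With 1 unwounded library there was no test, and this is the library that stood apart by *Xist*.

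Over both genotypes *S100a8* rose by 2.30 on the log2 scale (SE 1.07, 95% interval 0.01 to 4.59), with overlapping groups. After Benjamini-Hochberg adjustment edgeR's quasi-likelihood test gave *S100a8* an adjusted p = 0.751 for the log2 fold change of 2.30, with 1 of 4 wounded libraries above all 3 unwounded ones. The exact permutation test over the 7 libraries, two-sided, gave p = 0.286 for *S100a8* and p = 0.457 for *S100a9*. In edgeR's quasi-likelihood test *S100a9* had a log2 fold change of 1.72 (SE 0.81, 95% interval -0.02 to 3.45) and was not called, nor was it by DESeq2. It was called by edgeR's likelihood ratio test (1.97) and by the quasi-likelihood test without the filter on low counts (1.72). The call of *S100a8* did not hold without unwounded *Grhl3*-cKO (1.58), nor without WT unwounded replicate 2 (1.89), WT wounded replicate 2 (1.97), *Grhl3*-cKO wounded replicate 1 (2.2) or *Grhl3*-cKO wounded replicate 2 (2.27). Conversely, *S100a9* was called without WT unwounded replicate 1 (2.04), WT unwounded replicate 2 (1.95) or WT wounded replicate 1 (2.70). Without unwounded *Grhl3*-cKO, *S100a9* stood at 0.65. In fits without 1 library the value of *S100a8* ran from 1.58 to 3.80. *S100a4* and *S100a8* were thus the 2 of 10 members called over both genotypes by edgeR's quasi-likelihood test, 1 lower and 1 higher, against 6.61% of all genes. After adjustment 0 members were called, against 0.0356% of all genes; at an unadjusted P under 0.05 DESeq2 called 2 (7.57% of all genes) and edgeR's likelihood ratio test 3 (8.42%), with *S100a9* as the third. Groups did not overlap for 1 member, *S100a4*, against 6.44% of all genes.

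Neutrophil markers were low, in the same range as *S100a8* and *S100a9*. The list of 12, of which *Ly6g* has no entry in the count tables, summed to 3.16 and 10.1 CPM in WT unwounded, 3.78 and 5.32 CPM in WT wounded, 1.78 CPM in unwounded and 5.98 and 4.83 CPM in wounded libraries labelled *Grhl3*-cKO. Its most abundant gene was *Cxcr2*, at 0.963 to 5.41 CPM. The granule genes *Elane*, *Ngp*, *Ltf* and *Retnlg* had 0 counts in all 7 libraries. Of the 4 tested, *Itgam* was highest in WT wounded replicate 2 (16 counts, 1.04 CPM), the library highest in *S100a8* and *S100a9*, whereas *Cxcr2* (5.41 CPM), *Cxcr4* (3.63 CPM) and *Mpo* (0.774 CPM) were highest in WT unwounded replicate 2. *Cxcr4* was lowest in WT wounded replicate 2 (0.324 CPM). None of the 4 was called by edgeR in any of the 3 comparisons. Under the 2-fold rule used for *S100a8* and *S100a9* in libraries labelled *Grhl3*-cKO, *Cxcr2* (0.963 CPM unwounded, 4.80 and 3.36 CPM wounded) and *Cxcr4* (0.370 CPM unwounded, 0.854 and 1.19 CPM wounded) were higher, 2 of 4, against 9.58% of all genes in either direction. *Mpo* (0.52 on the log2 scale) and *Itgam* (-0.97) were past it in neither direction. Of 5 other leukocyte genes tested 2 were higher and 1, *Itgb2*, lower (-1.11). The 2 higher ones passed the filter only through wounded libraries, so nothing is read from that count. Other leukocyte markers summed to 2.0 to 6.79 CPM, led by *Cd68*, with *Tyrobp*, *Fcer1g* and *Cd3e* at 0 counts. *Lyz2* of that list was called higher in WT and over both genotypes, 1 of 5 tested, and had 0 counts in the 3 unwounded libraries and 0.961 and 2.40 CPM in WT wounded and 0.591 and 2.80 CPM in wounded *Grhl3*-cKO libraries. It passed the filter only through wounded libraries, so nothing is read from its calls. The part of neutrophils and other leukocytes in the levels of *S100a8* and *S100a9* was not tested.

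**Figure D2:**
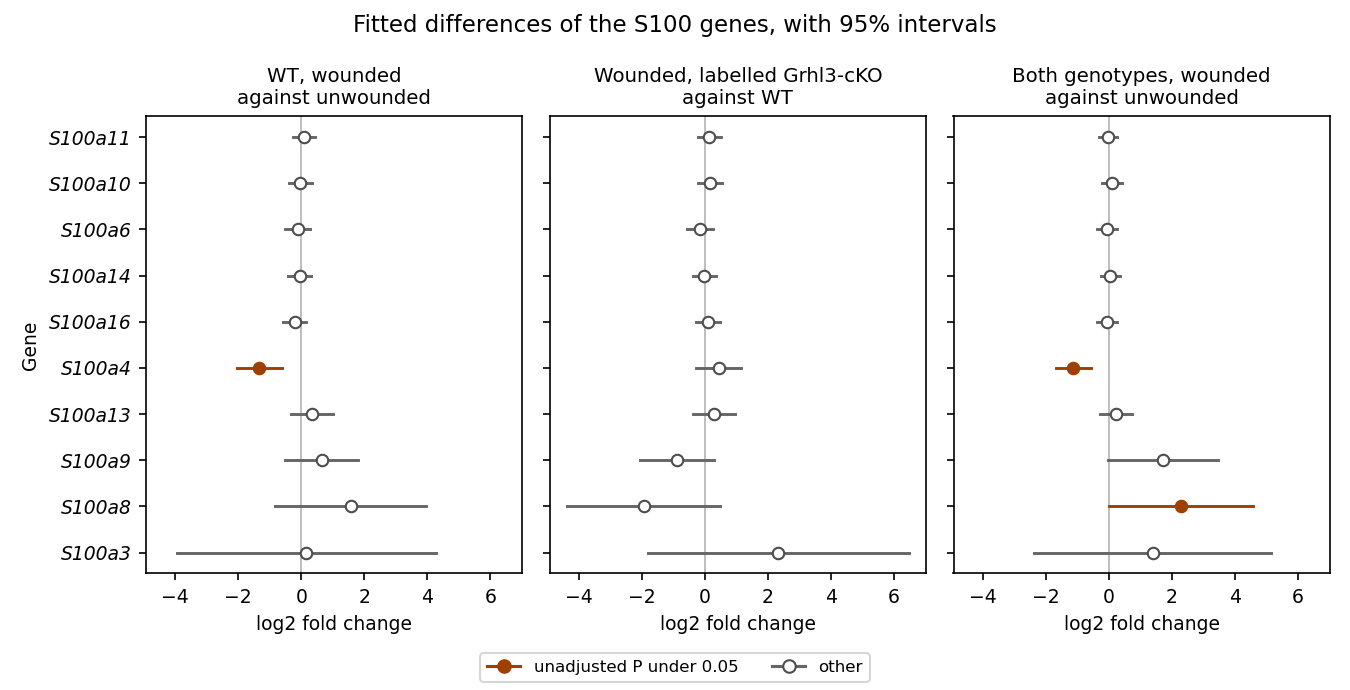
Log2 fold changes of the 10 S100 genes in the 3 tested comparisons, from edgeR's quasi-likelihood fit of all 7 libraries; points are fitted values, lines are 95% intervals, and filled points mark an unadjusted P under 0.05. *S100a4* lay below 0 in both wound comparisons (-1.34 and -1.12), *S100a8* was marked over both genotypes (2.30), and intervals of the 5 most abundant genes stayed between -0.59 and 0.54.

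The abundant members showed no call in any of the 3 comparisons. Across *S100a6*, *S100a10*, *S100a11*, *S100a14* and *S100a16* the 15 log2 fold changes ran from -0.21 to 0.16, and none was called by edgeR. Their 95% intervals reached from -0.59 to 0.54. *S100a16* stood at 121 and 127 CPM in WT unwounded and 93.5 and 117 CPM in WT wounded libraries. Both wounded libraries lay below both unwounded ones, by -0.21 on the log2 scale (SE 0.18, not called). *S100a11* stood at 381 and 345 CPM in WT unwounded and 324 and 433 CPM in WT wounded libraries, and at 467 CPM before and 406 and 416 CPM after wounding in libraries labelled *Grhl3*-cKO. Its WT groups overlapped. *S100a13*, which takes part in the release of FGF1 and IL-1α from cells, stood at 13.6 and 9.58 CPM in WT unwounded and 13.3 and 15.5 CPM in WT wounded libraries, with a log2 fold change of 0.34 (SE 0.31, not called). These groups overlapped as well.

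Genotype was compared within the wound front, where the question was what loss of GRHL3 alters in migrating keratinocytes. By edgeR's quasi-likelihood test 0 of 10 members were called at an unadjusted P under 0.05, against 4.04% of all genes, and DESeq2 and edgeR's likelihood ratio test also called 0, against 3.96% and 6.22%. After adjustment 0 members and 0% of all genes passed. Groups did not overlap for 3 members, against 30.9% of all genes. *S100a3* is among the 3 and, as above, passed the filter only through the group where it is high. The median log2 fold change was 0.11 over the members and -0.01 over all genes, of which 275 were called higher and 292 lower.

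*S100a3* and *S100a13* were higher and *S100a8* lower in both wounded libraries labelled *Grhl3*-cKO than in both WT wounded libraries. *S100a13* stood at 17.6 and 16.9 CPM, against 13.3 and 15.5 CPM in WT, a log2 fold change of 0.28 (SE 0.31, not called). *S100a3* stood at 0.591 and 2.31 CPM, against 0.240 and 0.324 CPM, which is 9 and 33 counts against 4 and 5, and its 95% interval of -1.81 to 6.47 spanned both directions (not called by edgeR). *S100a8* stood at 1.05 and 0.840 CPM, against 1.38 and 6.10 CPM, a log2 fold change of -1.95 (SE 1.15, 95% interval -4.39 to 0.49, not called). *S100a9* stood at 7.95 and 4.41 CPM, against 4.80 and 18.6 CPM, and its groups overlapped (log2 fold change -0.89, SE 0.55, not called). The calls of 3 members changed with the WT library used. Without WT wounded replicate 1, *S100a8* and *S100a9* were called lower, at -2.66 and -1.56. Without WT wounded replicate 2, *S100a4* was called higher, at 0.85, while *S100a9* stood at 0.41 and *S100a8* at -0.50. Each of these fits holds 1 WT wounded library, and its measure of spread comes from the other groups. Whether wounding acted differently in the genotypes was not tested.

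Marker lists were read in these same libraries. Calls between genotypes, here and below, stand against 4.04% of all genes. The suprabasal keratinocyte list of 6 summed to 3830 and 5627 CPM in WT wounded and 6959 and 8825 CPM in wounded libraries labelled *Grhl3*-cKO, with 5 genes called higher and 0 lower. *Krt10* rose by 0.87 on the log2 scale, *Krt1*, the most abundant of the list, by 0.77 and *Dsg1a* by 0.53. After wounding *Krt1*, *Krt10* and *Sbsn* fell in WT, by 0.66, 0.45 and 0.37. These calls of *Krt1* (-0.32) and *Krt10* (-0.25) ended without WT wounded replicate 1, and that of *Sbsn* in 4 of 7 fits without 1 library (-0.36 at the weakest). Between genotypes *Dsg1a* stood at 0.39 without WT wounded replicate 1 and was not called, while *Krt1* stood at 0.43 and was. The calls of *Krtdap* (0.64) and *Calm4* (0.68) ended in 2 of 7 fits without 1 library, at 0.32 for *Krtdap* without WT wounded replicate 1 and 0.20 for *Calm4* without *Grhl3*-cKO wounded replicate 2. Basal markers were not called in any comparison, 0 of 6. Lower between genotypes were 2 of 8 outer root sheath and bulge markers, *Krt75* (-1.64) and *Postn* (-0.43), 1 of 4 hair shaft markers, *Krt35* (-4.81), and 1 of 7 endothelial markers, *Flt1* (-1.86), with 0 higher in these lists. *Krt35* had 169 counts in WT wounded replicate 1 and 0 in replicate 2, and did not pass the filter without replicate 1. These calls ended without WT wounded replicate 1 for *Krt75* (-0.49) and *Postn* (-0.36), without *Grhl3*-cKO wounded replicate 1 for *Krt35* (-3.82), and in 3 of 7 fits without 1 library for *Flt1* (-1.35 at the weakest). Fibroblast, melanocyte, neutrophil and other leukocyte markers had 0 calls between genotypes. The part of these cells in the levels of *S100a8*, *S100a9* and *S100a13* was not tested.

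Other S100 family genes were scarce. *S100a1*, a member best known from muscle, was the only other family gene to pass the filter, with a median of 13.8 CPM per kb (8.14 to 17.8) and no call in the 3 edgeR comparisons. *S100b* had 5 and 8 counts in WT wounded, 4 in unwounded *Grhl3*-cKO and 0 elsewhere. *S100a5* had 4 counts in 1 library, *S100a7a* 1 count, and *S100a7l2*, listed as 9130204L05Rik, 10 counts over 3 libraries. *S100a2*, *S100g* and *S100z* had 0 counts in all 7 libraries, and *S100p* has no entry in the count tables.

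S100 fused-type genes carry an S100 domain at the start of a long cornified-layer protein. Of 7, 5 were tested, and 1 was called higher in WT wounded keratinocytes, *Tchh* of the hair follicle inner root sheath, against 4.84% of all genes. With 5 genes a single call is not far from that share. *Tchh* was the most abundant of them, at 75.5 and 64.2 CPM in WT unwounded and 296 and 54.9 CPM in WT wounded libraries. WT wounded replicate 1 alone was high, and the fitted value of 1.35 turned to -0.32 without it. In that library the hair shaft list also summed to 22.3 CPM, against 2.40 to 8.97 CPM in the others, with *Krt35* at 10.2 CPM and *Krt31* at 3.06 CPM, and 5 of its 10 genes at 0 counts everywhere. *Msx2* was the most abundant of that list, at 0.973 to 5.18 CPM. The hair cuticle member *S100a3* had 4 counts there. *Rptn* was called higher over both genotypes with 0 to 5.32 CPM. It passed the filter only through wounded libraries, at no more than 0.148 CPM unwounded, so nothing is read from its call. Between genotypes *Hrnr* was called higher (3.57, at 0 and 0.454 CPM in WT wounded and 4.53 and 0.770 CPM in wounded libraries labelled *Grhl3*-cKO). *Tchh* was called lower between genotypes (-1.87), at 37.0 and 57.6 CPM in wounded *Grhl3*-cKO, with overlapping groups, and without WT wounded replicate 1 that call ended as well (-0.20). Without *Grhl3*-cKO wounded replicate 1 *Hrnr* stood at 1.74, and without replicate 2 *Rptn* stood at 2.69, neither of them called.

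Partners and cargo of S100 proteins form a further list. Of 13 tested, 2 were called higher and 0 lower in WT wounded keratinocytes, against 4.84% of all genes. *Myh9*, the myosin heavy chain that S100A4 binds, rose by 0.31 on the log2 scale, from 2579 and 2562 CPM to 3223 and 3034 CPM. *Anxa11* rose by 0.56. Both calls ended in some fits without 1 library, at 0.27 for *Myh9* and 0.45 for *Anxa11* without WT wounded replicate 1. Over both genotypes the same 2 genes were called, at 0.35 for *Myh9* and 0.47 for *Anxa11*, and between genotypes *Myh9* was lower in libraries labelled *Grhl3*-cKO, by -0.29, a call that ended in 5 of 7 fits without 1 library (-0.22 at the weakest). *Ahnak*, a scaffold that binds S100A10 with annexin A2, was most abundant at 7634 to 9344 CPM and was called in no comparison.

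Among 8 receptor and signalling genes tested, *Mcam*, which encodes a receptor of S100A8 and S100A9, rose by 1.49 in WT, from 4.20 and 3.63 CPM to 8.29 and 13.3 CPM. The scavenger receptor *Cd36* fell by 0.88, from 12.3 and 25.5 CPM to 9.97 and 10.2 CPM, a call that ended without WT unwounded replicate 2 (-0.28). In libraries labelled *Grhl3*-cKO *Cd36* stood at 8.52 CPM unwounded and, higher, at 12.0 and 18.7 CPM wounded. *Mcam* stood at 1.09 without WT wounded replicate 2 and was not called. Over both genotypes *Mcam* rose by 1.60 and *Alcam* fell by 0.46, a call that ended without unwounded *Grhl3*-cKO (-0.20). *Bsg*, an S100A9 receptor gene and the most abundant of the list at 197 to 264 CPM, was called in no comparison. *Mcam* is also made by endothelial cells. Of their 8 markers, 7 of them tested, 4 were called higher in WT and 5 over both genotypes, with 0 lower. The shares of all genes called were 4.84% and 6.61%. *Flt1* and *Kdr* passed the filter only through wounded libraries, where they are high, so nothing is read from their calls. The list summed to 3.81 and 4.52 CPM in WT unwounded and 31.0 and 16.7 CPM in WT wounded keratinocytes, and to 0.889 CPM before and 12.9 and 16.6 CPM after wounding in libraries labelled *Grhl3*-cKO, with *Flt1* called higher in WT (4.44) together with *Cdh5*, *Kdr* and *Pecam1*. The calls of *Kdr* (1.32) and *Pecam1* (1.51) ended without WT wounded replicate 1, and that of *Cdh5* (2.61) without WT unwounded replicate 1. *Vwf* was the most abundant, at up to 7.70 CPM. The part of endothelial cells in the level of *Mcam* was not tested.

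Neighbours of the S100 genes in the epidermal differentiation complex gave 1 call higher and 0 lower of 12 tested in WT, the cornified envelope gene *Sprr2h* (1.45). Over both genotypes *Sprr2h* (2.29) and *Sprr1b* (1.06) were called higher, and 0 were called between genotypes. The shares of all genes called were 4.84% in WT, 6.61% over both genotypes and 4.04% between genotypes. With 12 genes a single call is not far from them. Without WT wounded replicate 2 *Sprr2h* stood at 0.27 in WT, and without unwounded *Grhl3*-cKO *Sprr1b* stood at 0.63, neither of them called. *Sprr1a*, the most abundant, ranged from 231 to 389 CPM. Of 12 antimicrobial and alarm genes tested, 1 was called higher and 3 lower in WT wounded keratinocytes, and 0 in either other comparison. *Lcn2*, which like calprotectin withholds a metal from bacteria, fell by 0.89, from 47.2 and 67.4 CPM to 26.8 and 34.1 CPM, *Defb6* by 0.68 and *Ccl20* by 0.65. In libraries labelled *Grhl3*-cKO wounded values were instead higher, for *Lcn2* at 4.96 CPM unwounded and 35.2 and 38.5 CPM wounded, and for *Ccl20* at 11.9 CPM unwounded and 19.6 and 37.1 CPM wounded. The WT calls ended without WT unwounded replicate 2 for *Lcn2* (-0.62) and *Ccl20* (-0.37) and without WT unwounded replicate 1 for *Defb6* (-0.38). *Il33* was called higher at 0.81, a value that was -0.07 without WT wounded replicate 2, the library highest in *S100a8* and *S100a9*. Wound keratins, which mark activated epidermis, gave 3 calls higher of 4 both in WT and over both genotypes. *Krt6b* rose by 2.14 and 3.36, *Krt6a* by 1.21 and 1.66, and *Krt16*, the most abundant, by 0.64 and 0.74, while *Krt17* fell between genotypes by 0.71. In WT wounded replicate 2, *Krt6b* (1075 CPM) and *Krt6a* (3402 CPM) were at their highest, as were *S100a8* and *S100a9*, and without it the WT values of *Krt6b* (0.62), *Krt6a* (0.47) and *Krt16* (0.38) were not called. Of the Langerhans cell list the same library was highest in *Cd74* (29.5 CPM), *H2-Ab1* (16.02 CPM) and *H2-Eb1* (6.62 CPM) but not in *H2-Aa* (4.22 CPM, against 5.60 CPM in *Grhl3*-cKO wounded replicate 2), *Cd207* (0.389 CPM, against 0.581 CPM in WT unwounded replicate 1) or *Epcam*. The summed fibroblast list was highest there as well (77.0 CPM). In unwounded *Grhl3*-cKO keratinocytes *Krt6b* was lowest, at 4.15 CPM, and *S100a8* and *S100a9* had 0 counts.

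Of the remaining lists, Langerhans cell markers summed to 209 to 448 CPM, led by *Epcam*, which keratinocytes of the hair follicle also express, at 187 to 436 CPM. In WT wounded replicate 2 *Epcam* made up 266 of 323.0 CPM. *H2-Aa* (1.75) and *Cd74* (1.16) were called higher in WT wounded keratinocytes, and *Epcam* was called lower between genotypes (-0.58). The calls of *H2-Aa* (1.23) and *Cd74* (0.12) ended without WT wounded replicate 2, and without WT wounded replicate 1 that of *Epcam* (-0.26). Erythroid markers summed to 0 to 0.910 CPM, all of it *Alas2*, with 5 of 6 genes at 0 counts everywhere, and the 1 tested was not called.

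Across the 7 libraries, which share groups and differ in depth, log2 CPM of *S100a8* and *S100a9* had a Pearson r of 0.874, the highest of the 45 pairs of members. Next came *S100a10* and *S100a14*, at 0.851. Among 11079 genes with a mean log2 CPM of at least 1, those most like *S100a4* were *Faf2* (r = 0.988), *Phospho1* (0.967) and 4833439L19Rik (0.954). Most like *S100a9* were *Aldh18a1* (0.992), *Tbrg4* (0.987) and *Ndufa5* (0.985), and among 11080 genes most like *S100a8* were *St3gal2* (0.986), *Nupr1* (0.981) and *D8Ertd82e* (0.964). These values describe 7 points each and were not tested.

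All 10 genes lie on chromosome 3 in mm10 coordinates. *S100a13* (chr3:90514435-90524581), *S100a14* (chr3:90526856-90528837), *S100a16* (chr3:90537254-90543151), *S100a3* (chr3:90560578-90602702), *S100a4* (chr3:90603771-90606045), *S100a6* (chr3:90612882-90624181), *S100a8* (chr3:90668978-90670035) and *S100a9* (chr3:90692632-90695721) form a chain, with *S100a9* alone on the reverse strand. *S100a11* (chr3:93520488-93526287) and *S100a10* (chr3:93555080-93564643) lie apart from the chain, on the far side of the cornified envelope genes. The annotated span of *S100a3* encloses *S100a2* and ends shortly before *S100a4*. No exon of a member shares bases with an exon of another gene.

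ATAC-seq had 1 library per condition, so peaks are described without a test. The deposited lists held 10769 peaks for WT unwounded, 36872 for WT wounded, 29364 for unwounded *Grhl3*-cKO and 22474 for wounded *Grhl3*-cKO. A peak lay in or within 5 kb of 4 members in WT unwounded keratinocytes, *S100a3*, *S100a10*, *S100a13* and *S100a14*, against 50.7% of 13508 tested genes with a position. In WT wounded keratinocytes 9 members had a peak, all but *S100a9*, against 84.6%. In unwounded and wounded keratinocytes labelled *Grhl3*-cKO the members numbered 8 and 8, all but *S100a8* and *S100a9*, against 81.0% and 68.8%. The shortest list held the fewest members and the longest the most, and the background had the same order at its ends. Among the 10769 strongest peaks of each list the members with a peak numbered 4, 2, 4 and 4 in the same order, against 50.7%, 45.1%, 47.4% and 45.4% of genes.

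Merged over the conditions, the peaks near members formed 18 regions, of which 3 were found in the WT unwounded list, 17 in WT wounded, 12 in unwounded and 10 in wounded *Grhl3*-cKO. Only 3 regions were in all 4 lists. They lay at *S100a14* (chr3:90526015-90527347), in introns near inner transcript starts of *S100a3* (chr3:90585527-90587169, with 29 exon bases) and in the first part of *S100a10* (chr3:93555881-93556333, all intron). Fold enrichment over the local background at the *S100a10* region was 4.25 in WT unwounded, 4.03 in WT wounded, 4.54 in unwounded and 4.69 in wounded *Grhl3*-cKO. At *S100a14* the peaks of 3 lists covered the transcript start, and that of WT unwounded (chr3:90526177-90526565) ended 291 bases before it. The only peak counted for *S100a13* in WT unwounded and in wounded *Grhl3*-cKO is the one at *S100a14*, its downstream neighbour.

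*S100a4*, called lower after wounding before adjustment but not after it, had an intronic region at chr3:90604274-90604825. The region was absent from the WT unwounded list and present in the other 3, with fold enrichments of 4.48 in WT wounded, 4.28 in unwounded *Grhl3*-cKO and 5.13 in wounded *Grhl3*-cKO. A link between this region and the RNA level was not tested. Among equally long lists of the strongest peaks it was found in both *Grhl3*-cKO lists and in neither WT list. That cut removes most from the longest list, WT wounded. Its peak had a −log10 q of 4.66, above that of unwounded *Grhl3*-cKO (3.92), so nothing is read from this split. The region also lies within 5 kb of *S100a3*, so it counts for both. At *S100a8* a peak at chr3:90668953-90669161, over 125 exon bases and the transcript start, was found in the WT wounded list alone, with a fold enrichment of 3.76 and a −log10 q of 2.2. It was not among the 10769 strongest peaks of that list. At *S100a9* no list held a peak within 5 kb. *S100a11*, the most abundant member per kb, had a region over its start (chr3:93520214-93521177) in 3 lists, at 3.45 in WT wounded, 3.94 in unwounded and 4.44 in wounded *Grhl3*-cKO, and none in the WT unwounded list. Of the 5 most abundant members, *S100a10* and *S100a14* had a peak in the WT unwounded list and *S100a6*, *S100a11* and *S100a16* had none.

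**Figure D3:**
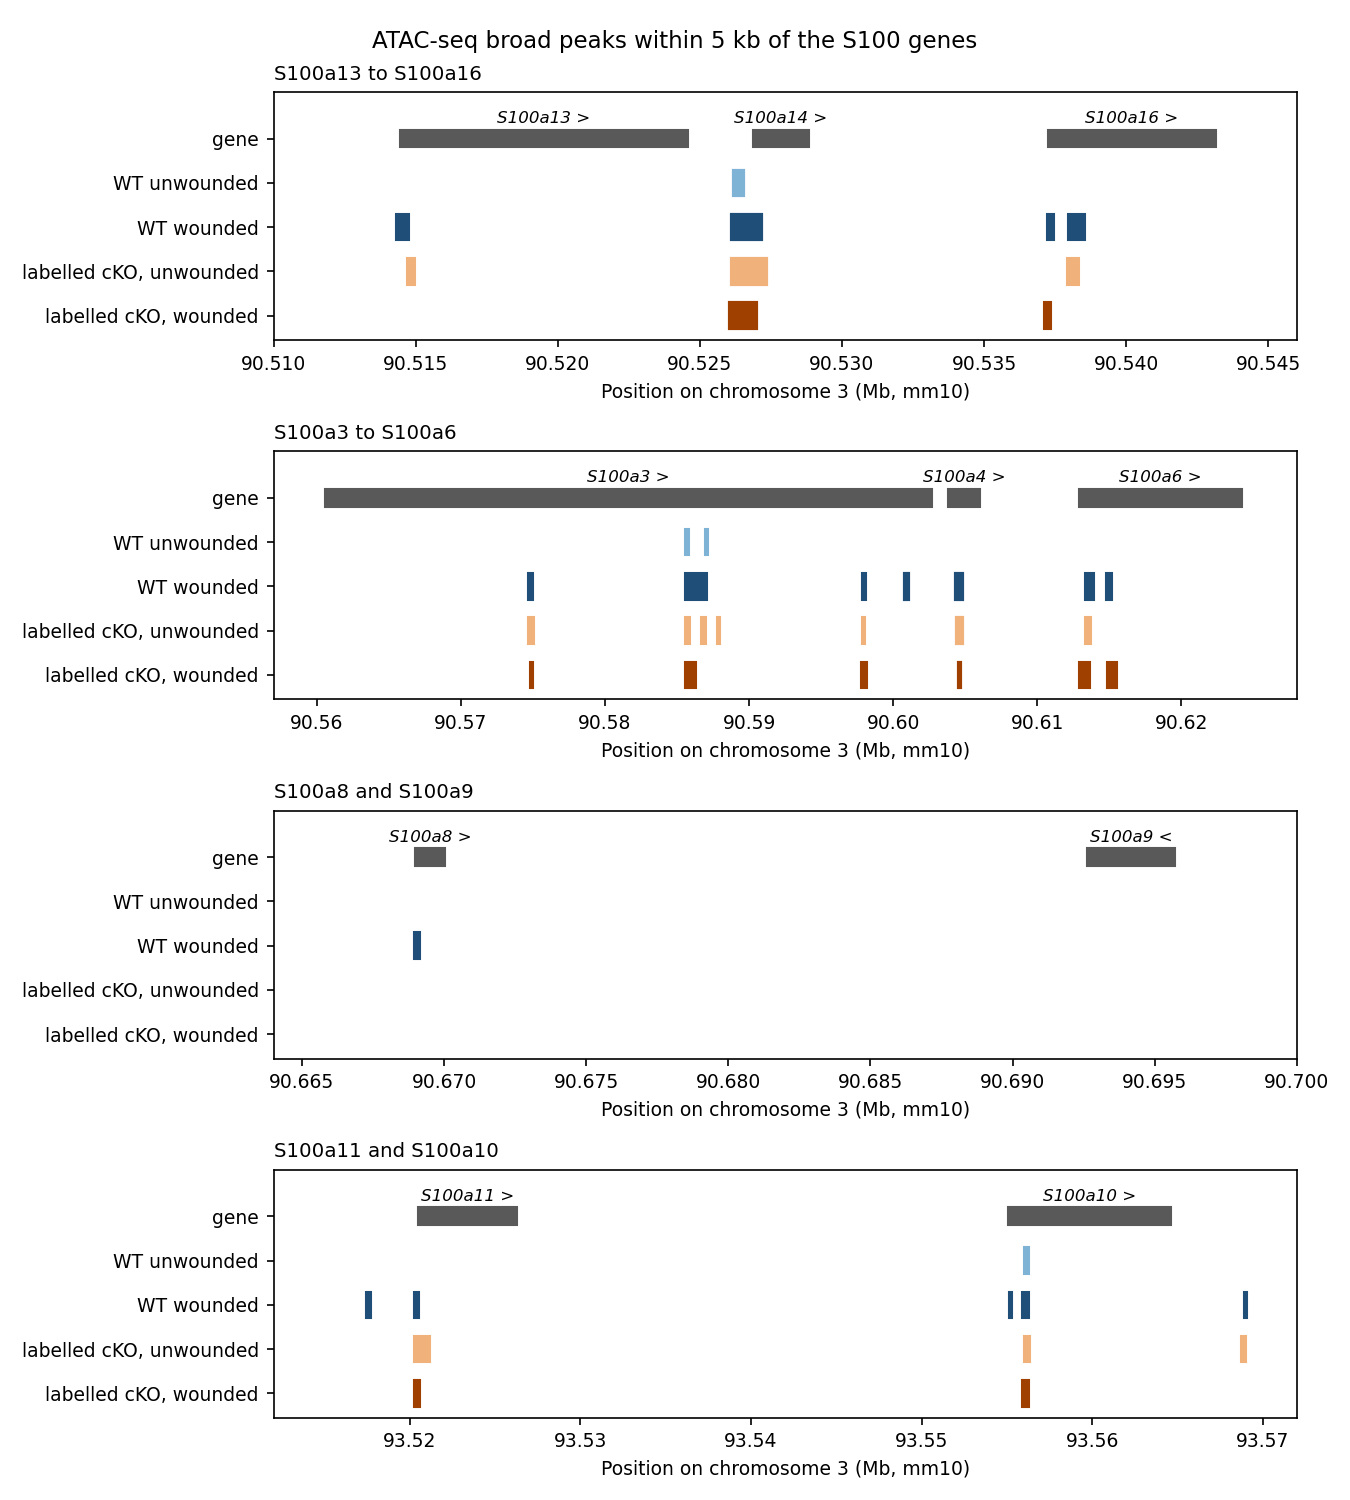
Maps of chromosome 3 (mm10, position in Mb) around the S100 genes; grey bars are genes with their direction, and coloured bars are ATAC-seq broad peaks within 5 kb of a member, 1 line per condition with 1 library each. The *S100a8* peak was found in WT wounded alone, the *S100a4* intronic region in every list but WT unwounded, and *S100a9* had no peak.

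Promoter windows of RefSeq, from 250 bases before to 50 bases after a transcript start in GRCm38.p6, were at hand for 8 members in 12 windows; *S100a10* and *S100a14* had none in the table used. Each window was searched on both strands for the GRHL core AACNNGTT, the AP-1 site TGANTCA and the C/EBP site TTGCNNAA, and, as a choice made after the windows were seen, for the TATA box TATAAA. Of 32544 windows of 26742 genes, 4.19% held the GRHL core, 7.79% the AP-1 letters, 10.8% the C/EBP letters and 13.6% TATAAA. Among the members GRHL core letters were in 2 windows, those of *S100a9* and of 1 start of *S100a3*. AP-1 letters were in 2 windows, C/EBP letters in 1 and TATAAA in 4. A match is a string of letters, and no binding was measured here.

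The windows of 4 members are printed 5′ to 3′ along the gene's own strand, because *S100a4*, *S100a8* and *S100a9* are the members whose wound values are described above, and *S100a11* is the most abundant per kb; capitals mark the matched letters. *S100a4* (chr3:90603520-90603819, forward strand) had TATAAA from base -31, counted from the transcript start at +1, and no peak over the window in any list. *S100a8* (chr3:90668821-90669120, forward strand) had TATAAA from base -30, and 168 of its 300 bases lay under the WT wounded peak. *S100a9* (chr3:90695672-90695971, reverse strand) had C/EBP letters from base -236, GRHL core letters from base -173 and TATAAA from base +1, with no peak over it. *S100a11* (chr3:93520246-93520545, forward strand) had AP-1 letters from bases -136 and -38, and all 300 bases lay under a peak in WT wounded and in both *Grhl3*-cKO lists.
*S100a4*: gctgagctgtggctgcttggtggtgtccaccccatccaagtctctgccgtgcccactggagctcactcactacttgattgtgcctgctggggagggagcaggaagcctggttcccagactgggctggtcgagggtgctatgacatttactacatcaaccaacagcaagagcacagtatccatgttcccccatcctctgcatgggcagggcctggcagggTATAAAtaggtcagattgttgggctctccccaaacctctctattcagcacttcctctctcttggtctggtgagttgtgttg
*S100a8*: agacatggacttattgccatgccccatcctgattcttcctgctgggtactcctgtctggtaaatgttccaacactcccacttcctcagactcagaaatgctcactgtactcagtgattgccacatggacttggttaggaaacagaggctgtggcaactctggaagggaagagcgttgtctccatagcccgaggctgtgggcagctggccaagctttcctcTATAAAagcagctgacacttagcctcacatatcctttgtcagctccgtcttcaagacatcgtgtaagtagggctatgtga
*S100a9*: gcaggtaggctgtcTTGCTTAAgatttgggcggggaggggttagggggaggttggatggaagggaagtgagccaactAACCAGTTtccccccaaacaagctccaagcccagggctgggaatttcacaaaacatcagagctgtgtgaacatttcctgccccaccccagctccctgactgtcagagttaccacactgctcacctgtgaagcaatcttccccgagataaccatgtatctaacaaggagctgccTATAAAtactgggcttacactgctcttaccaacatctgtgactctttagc
*S100a11*: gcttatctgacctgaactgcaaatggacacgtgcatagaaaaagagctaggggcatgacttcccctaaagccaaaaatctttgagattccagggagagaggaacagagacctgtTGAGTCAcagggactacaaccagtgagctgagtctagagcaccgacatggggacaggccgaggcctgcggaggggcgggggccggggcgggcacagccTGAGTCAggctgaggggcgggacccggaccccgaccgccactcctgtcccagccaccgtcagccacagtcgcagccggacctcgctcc

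A further GRHL core match lay in a window of *S100a3* (chr3:90588313-90588612, forward strand), from base -113, with TATAAA from base -52. No peak of the 4 lists lay over it. Another *S100a3* window, not printed, lay wholly under a peak in WT wounded and in unwounded *Grhl3*-cKO. The window from chr3:90588313 is shown as the only other member window with GRHL core letters, capitals as before.
*S100a3*: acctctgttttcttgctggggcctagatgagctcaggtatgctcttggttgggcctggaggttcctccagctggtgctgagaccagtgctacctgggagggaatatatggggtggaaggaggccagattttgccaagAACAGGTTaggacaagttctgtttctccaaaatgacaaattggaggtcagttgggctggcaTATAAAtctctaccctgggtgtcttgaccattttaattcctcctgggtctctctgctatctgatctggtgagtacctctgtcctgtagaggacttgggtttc

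The RNA results rest on at most 2 libraries per group, and no member passed adjustment in the 3 comparisons by edgeR's quasi-likelihood test. The wounding result of *S100a4* is the one that was called in every setting tried. The call of *S100a8* depended on single libraries and on how library sizes were computed. Some fibroblast, endothelial, hair follicle and suprabasal markers also differed between wounded and unwounded libraries, and their part in the S100 levels was not tested. Unwounded *Grhl3*-cKO is a single library that differs in sex chromosome genes, and each ATAC-seq condition is a single peak list.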

How the data were processed

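For RNA-seq the authors supply 1 count per gene symbol and library, all whole numbers; submitters' notes name FastQC, kallisto and mm10, and the counting step is not given in the sources used here. Ambiguous reads and reads not aligned uniquely (together 4.80% to 6.10% of a table) were left out. Counts were analysed with edgeR 4.0.16 (TMM, filterByExpr, quasi-likelihood test, two-sided, 14045 genes, 1 fit of 7 libraries, or genotype plus wounding over both genotypes) in R 4.3.3. A gene was called at an unadjusted P under 0.05; with at most 2 libraries per group these P values are not printed. The wounded and unwounded libraries labelled *Grhl3*-cKO were compared by a 2-fold rule on log2 CPM with a prior count of 2.

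For ATAC-seq the authors deposited broad peaks, each with a fold enrichment, a ratio to local background. Each deposited peak further has its p and its q, both as −log10, and a score that was not used. Per the paper's methods, reads were trimmed with Trimmomatic, aligned to mm10 with bowtie2 and called with MACS2. Gene positions came from the GENCODE basic annotation and promoter sequences from RefSeq. Overlap meant at least 1 base.

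Members and lists were chosen with earlier results of these data known. Named genes were the members, *Grhl3*, other S100 genes, up to 4 genes per list with the smallest P under 0.05, the most abundant gene of each list, and for members the 3 most alike genes. Y-linked genes, markers with 0 counts everywhere or no entry, and *Itgam*, *Cxcr4*, *Mpo*, *Itgb2*, *Cd207*, *Pdgfra*, *H2-Ab1* and *H2-Eb1* are named besides, a choice made after their values were seen. The same holds for *Krtdap*, *Calm4*, *Krt75* and *Postn*, which were called between genotypes. Protein sequences were not analysed here.

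Alternatives were RLE size factors, DESeq2 1.42.0, the likelihood ratio test, leaving out the filter, asking for 10 counts in every library, a replicate block, other library sizes, only the 4 libraries compared, each library left out, other prior counts, and for peaks a limit on q (0.01), a limit on fold enrichment (4), equally long lists and other distances. Scripts were tested on simulated data. Figures used matplotlib 3.10.9, and tables and permutation tests used scipy 1.17.1, pandas 2.3.3 and numpy 2.4.6 under Python 3.11.15.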

Additional observations from a re-analysis of the deposited data

Results flagged for a closer look

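*S100a16*, which was called in no comparison, had values on opposite sides in the genotypes. Both WT wounded libraries lay below both WT unwounded ones (log2 fold change -0.21, SE 0.18; groups did not overlap for 33.5% of all genes), and both wounded libraries labelled *Grhl3*-cKO lay above the unwounded library with that label (log2 ratio 0.17). The second value rests on 1 unwounded library, the one that stood apart by *Xist*, and the difference between genotypes was not tested. In fits without 1 library the WT value ran from -0.40 to -0.057.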

How the results depend on the processing

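Changes of normalisation, test, filter or library size with all libraries left no log2 fold change reversed. Over both genotypes 1 member was called when at least 10 counts were asked in every library (6.92% of genes), and 1 with library sizes computed without the members and the 100 most abundant genes (6.55%), against 2 (6.61%). With those library sizes the call of *S100a8* ended at an unchanged log2 fold change of 2.30. The 2-fold rule gave 0 members with at least 10 counts in every library (4.13% of genes), against 3 (9.58%), because the 3 have fewer than 10 counts in the unwounded library and leave with that filter. Without *Grhl3*-cKO wounded replicate 1 the share of all genes past the rule was 18.3%, and without replicate 2 it was 19.5%. The replicate block takes replicate numbers from the sample titles, and for the unwounded library labelled *Grhl3*-cKO the file name gives another number. That library held *Xist* and 0 counts of Y-linked genes, unlike both wounded libraries of that label. Under either number the block therefore does not pair it with a sample of the same animal. With the block the members called were 1, 0 and 2, and all genes called 719 against 680, 596 against 567 and 888 against 929. The likelihood ratio test called 1117 and 873 genes in the first pair of comparisons.

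Leaving out 1 library gave 1 to 2 members called for wounding in WT (4.47% to 5.61% of genes), 0 to 2 between genotypes (3.03% to 6.16%) and 1 to 3 over both genotypes (5.02% to 9.01%). In the first pair of comparisons a group that loses a library keeps 1, and the measure of spread comes from the other groups. Over both genotypes, the fit without unwounded *Grhl3*-cKO takes wounding from the WT libraries alone and repeats the WT comparison. Reversed log2 fold changes for wounding in WT ran, lowest to highest, from -0.65 to 2.13 for *S100a3*, -0.34 to 0.076 for *S100a6*, -0.66 to 1.32 for *S100a9*, -0.24 to 0.15 for *S100a10*, -0.16 to 0.28 for *S100a11*, -0.20 to 0.084 for *S100a14*, -0.32 to 2.09 for *Tchh* and -0.066 to 1.34 for *Il33*. Between genotypes they ran from -0.42 to 0.081 for *S100a6*, -1.56 to 0.41 for *S100a9*, -0.023 to 0.37 for *S100a10*, -0.058 to 0.38 for *S100a11*, -0.17 to 0.12 for *S100a14* and -0.073 to 0.27 for *S100a16*. Over both genotypes they ran from -0.15 to 0.064 for *S100a6*, -0.020 to 0.24 for *S100a10*, -0.18 to 0.089 for *S100a11*, -0.038 to 0.14 for *S100a14* and -0.21 to 0.060 for *S100a16*. *S100a4* was called for wounding in every setting.

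Members with a peak numbered 2 in WT unwounded at a q of at most 0.01 (43.5% of genes) and 1 at a fold enrichment of at least 4 (34.9%). With the latter they numbered 3 in WT wounded (69.3%), 4 in unwounded (58.1%) and 4 in wounded *Grhl3*-cKO (57.0%), and among the strongest peaks, as many as in the shortest list, 2 (45.1%), 4 (47.4%) and 4 (45.4%).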
